A study of Mus musculus with 2 samples.

Results

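A subset of AE9a leukemia cells carried high levels of Mcpt1 and Mcpt2 RNA, which encode mast cell chymases of the mouse. These cells were chosen by their measured counts: among cells with at least 500 detected genes and at most 10% mitochondrial UMIs, a member had at least 10 UMIs of Mcpt1 plus Mcpt2 per 10000 UMIs. A UMI, or unique molecular identifier, tags 1 captured RNA molecule. There were 784 members among 14292 filtered cells and 15114 deposited cell barcodes, and they were compared with the remaining 13508 cells, library by library. The leukemia was made with AE9a, a truncated AML1-ETO fusion, introduced by a retrovirus that also expresses GFP, in Usp18+/f cells with UBCER-Cre, a Cre under a ubiquitin promoter that acts in all tissues once tamoxifen is given. Recipient mice were treated with oil (labelled Usp18+/f) or tamoxifen (labelled Usp18+/Δ) once sick, and GFP+ Lin- c-Kit+ cells were sorted from spleen 3 days after the first injection. Recipients were adult C57BL/6 mice by the study's methods. Cells of 3 mice were pooled per group, so that each group was 1 library and no replicate spread existed.

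Each group being 1 library, differences are given without p-values. Every difference compares these libraries or cells within them, and all 95% intervals cover counting error only. A gene was called higher or lower in members when its summed level differed at least 2-fold (log2 ratio of at least 1, or at most -1) in the same direction in both libraries. Levels are CPM, a gene's share of all UMIs summed over the named cells, times 1000000. They come from 3′ tags, and levels were compared between cells for 1 gene, not between genes.

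Mast cells and basophils are granulocytes that carry the high affinity IgE receptor and store histamine and proteases in granules. Mcpt1, Mcpt2, Mcpt4 and Cma1 belong to the chymase family of serine proteases, tryptases such as Tpsb2 and Tpsab1 cut after basic residues, and carboxypeptidase A3 (Cpa3) trims peptide ends. Mcpt1 and Mcpt2 are best known from mast cells of mucosal tissue, Mcpt4 and Cma1 from those of connective tissue, and Mcpt8 from basophils. c-Kit, the receptor used in the sort, is carried by mast cells as well as by progenitors, so a c-Kit+ gate does not remove mast cells.

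The protease genes that define these cells lie in a cluster on chromosome 14, with Mcpt9 between them. In the GENCODE vM21 annotation of mm10, Mcpt1 spans chr14:56017971-56020384 on the plus strand and Mcpt2 chr14:56042041-56044642 on the plus strand. Cma1, Cma2, Mcpt9, Mcpt4, Mcpt8, Ctsg and a series of granzyme genes up to Gzmb share the same interval. The 250 bases before the start of Mcpt1, Mcpt4, Mcpt8 and Cpa3 are shown because these proteases were all higher in members and because 3 of these 4 windows hold GATAA, a motif of GATA factors, in capitals here and searched on both strands (TTATC is its other strand). The sequences are from RefSeq on GRCm38.p6 and are written 5′ to 3′ along the gene.
Mcpt1, chr14:56017714-56017963, plus strand: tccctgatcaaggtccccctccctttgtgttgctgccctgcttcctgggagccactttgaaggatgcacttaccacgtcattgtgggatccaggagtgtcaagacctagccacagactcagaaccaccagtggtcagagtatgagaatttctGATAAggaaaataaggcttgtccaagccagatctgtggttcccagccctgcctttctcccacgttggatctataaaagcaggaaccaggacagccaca
Mcpt4, chr14:56062311-56062560, minus strand: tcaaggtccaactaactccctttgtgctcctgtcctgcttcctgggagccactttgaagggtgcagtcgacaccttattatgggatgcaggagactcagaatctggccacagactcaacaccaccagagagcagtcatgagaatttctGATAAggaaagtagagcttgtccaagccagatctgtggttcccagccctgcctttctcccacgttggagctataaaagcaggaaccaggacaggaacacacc
Mcpt8, chr14:56085198-56085447, minus strand: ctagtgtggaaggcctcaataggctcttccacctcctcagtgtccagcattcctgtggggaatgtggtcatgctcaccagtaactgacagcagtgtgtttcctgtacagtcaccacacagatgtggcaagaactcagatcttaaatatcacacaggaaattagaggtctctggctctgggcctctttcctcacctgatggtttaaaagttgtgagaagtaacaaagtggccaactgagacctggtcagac
Cpa3, chr3:20242182-20242431, minus strand: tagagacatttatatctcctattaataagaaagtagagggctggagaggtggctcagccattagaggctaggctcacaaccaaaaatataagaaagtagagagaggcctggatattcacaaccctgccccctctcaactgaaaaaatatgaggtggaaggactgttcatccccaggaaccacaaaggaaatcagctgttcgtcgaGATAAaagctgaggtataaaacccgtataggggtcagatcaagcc

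The GATAA of Mcpt1 began 98 bases before the start, that of Mcpt4 102 bases before, and that of Cpa3 45 bases before. Mcpt1 and Mcpt4 shared the 22 bases atgagaatttctGATAAggaaa around it, and the longest stretch they shared was 53 bases. GATAA was present in 22.6% of 32851 RefSeq promoter windows of the same length, so its presence is a description of these windows and not of a bound site. No 50-base window of the Mcpt1 transcripts was identical to one of Mcpt2, Mcpt4 or Cma1, whereas Mcpt9 and Cma2 shared 367 such windows, so counts of Mcpt9 and Cma2 are uncertain. Mcpt4 shared 58 windows with Cma2 and 7 with Mcpt9, so a part of its counts is uncertain too.

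Members were found in both libraries at different shares. In the oil library 499 of 6886 cells were members, 7.25% (95% interval 6.65 to 7.88, Clopper-Pearson), and in the tamoxifen library 285 of 7406 cells, 3.85% (3.42 to 4.31). The log2 ratio of the shares, tamoxifen over oil, was -0.91 (score interval -1.12 to -0.71), a share 1.88-fold higher with oil. Raising the threshold to 20 gave 4.31% and 2.23%, and lowering it to 5 gave 10.4% and 6.17%. When each cell was thinned to 3000 UMIs the shares were 7.92% and 3.73%. Under a filter of at most 5% mitochondrial UMIs, however, the direction turned: 85 members made up 8.03% of the oil cells and 108 members made up 14.5% of the tamoxifen cells, a log2 ratio of 0.85. The difference in shares therefore holds for cells of up to 10% mitochondrial UMIs and not for the low-mitochondrial cells alone.

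The level of Mcpt1 plus Mcpt2 formed a continuous distribution with no gap at the threshold. In the oil library 4779 cells had no UMI of either gene, 1389 had a level above 0 and below 5 per 10000, 219 lay between 5 and 10, 202 between 10 and 20, 151 between 20 and 50, 80 between 50 and 100, and 66 at 100 or above. In the tamoxifen library these groups held 5772, 1177, 172, 120, 81, 39 and 45 cells. The lowest member had 10.0071 per 10000 and the highest remaining cell 9.99786 in the oil library, against 10.0959 and 9.96016 in the tamoxifen library. In the oil library 61 members lay between 10 and 12, with a median of 8 Mcpt UMIs, and 60 remaining cells lay between 8 and 10, with a median of 6. In the tamoxifen library these were 45 members with a median of 4 UMIs and 56 remaining cells with a median of 5, so cells on either side of the threshold there differed by about the counting error of a single cell.

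**Figure D1:**
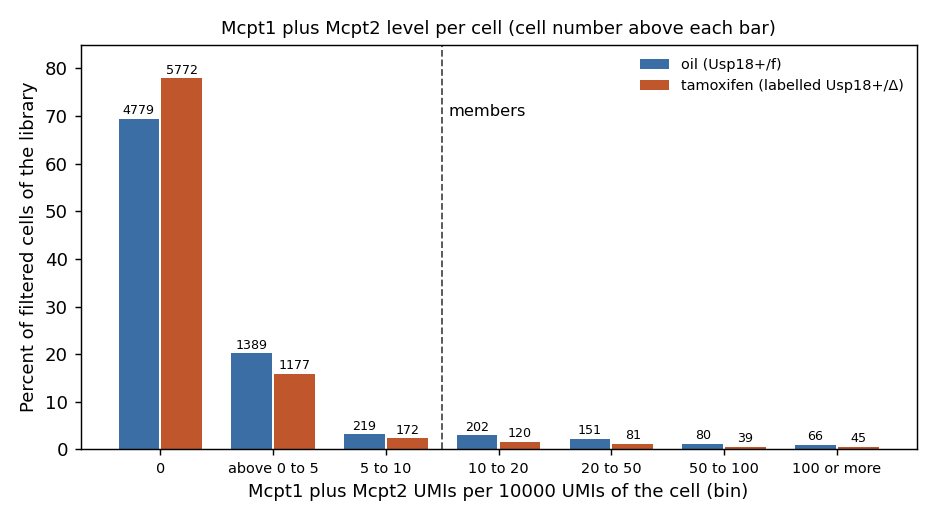
Percent of filtered cells in each library (vertical axis) by the level of Mcpt1 plus Mcpt2 UMIs per 10000 UMIs of the cell (horizontal axis, bins), with oil in blue, tamoxifen in orange, the number of cells above each bar and the threshold as a dashed line. The bins from 10 upward hold 499 oil and 285 tamoxifen cells, and no empty bin separates them from the cells below.

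Most members carried both transcripts. In the oil library 387 of the 499 members had UMIs of both genes, 70 of Mcpt1 alone and 42 of Mcpt2 alone, and in the tamoxifen library 188 of the 285 had both, 49 Mcpt1 alone and 48 Mcpt2 alone. The median member had 17 Mcpt UMIs with oil (quartiles 9.5 and 32, highest 213) and 12 with tamoxifen (7 and 24, highest 189). Mcpt1 made up 66.3% of the members' UMIs of the pair in the oil library and 61.1% in the tamoxifen library. Membership rested on fewer than 5 UMIs in 23 oil and 37 tamoxifen members, and on a single UMI in 9 and 3. The members held 80.6% of all Mcpt1 and Mcpt2 UMIs of the oil library while holding 5.19% of its UMIs, and 71.8% and 2.13% in the tamoxifen library. Of the remaining cells, 25.2% (oil) and 18.9% (tamoxifen) had at least 1 UMI of the pair, mostly a single UMI (900 of 1608 and 835 of 1349 cells).

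Members were shallower than the remaining cells. Their median was 5591 UMIs and 2175 genes against 8889 UMIs and 2966 genes with oil, and 4198 UMIs and 1752 genes against 8296 UMIs and 2849 genes with tamoxifen. Under 3000 UMIs lay 56 of the 499 oil and 75 of the 285 tamoxifen members. The mitochondrial share was 6.38% against 6.31% with oil and 5.60% against 6.45% with tamoxifen. Because the threshold is a ratio to the total, and shallow cells differ from deep ones in other genes too, an alternative added after seeing the data weighted the remaining cells to the members' depth: the members were split by depth into 10 bins of equal size, and the remaining cells of each bin entered with the UMIs that the members held there. Its values are called depth-weighted and were computed for the genes with the largest ratios, some further genes and the main lists. All 15 of the largest positive ratios were smaller when depth-weighted in both libraries. The median doublet score was 0.0681 in members against 0.0996 in remaining cells with oil and 0.0575 against 0.0933 with tamoxifen. Above the 95th percentile of scores lay 6.61% of oil members against 4.57% of remaining oil cells, and 2.46% against 4.58% with tamoxifen. None of the 15 barcodes that occur in both libraries was a member.

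Granule proteases other than the pair that defined the members were higher in members. Mcpt4 had 159 CPM in oil members against 4.48 in the remaining oil cells, and 309 against 5.30 with tamoxifen, log2 ratios of 5.15 (4.93 to 5.37) and 5.86 (5.65 to 6.08), and 4.07 and 3.88 depth-weighted. Cma1 was present in the remaining cells as well, at 334 and 447 CPM, and reached 2812 and 4700 CPM in members (log2 ratio 3.07 and 3.39; depth-weighted 2.33 and 1.49). Cpa3 had 548 against 74.8 CPM with oil (log2 ratio 2.87) and 1887 against 152 with tamoxifen (3.63), and its depth-weighted ratios were 1.72 and 1.47. All of these members' values lay above both remaining groups.

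The tryptase genes, clustered on chromosome 17, had low levels that were lower still in the remaining cells. Tpsab1 (chr17:25343245-25345562, minus strand) had 32.3 CPM in oil and 64.8 CPM in tamoxifen members against 0.741 and 0.992 CPM in the remaining cells. Its UMIs came from 43 oil and 33 tamoxifen members, with 52.4% and 65.9% of them in the top 10 cells. Tpsg1, a membrane-anchored tryptase (chr17:25369273-25374442, plus strand), had 56.0 and 241 CPM against 1.48 and 6.47. Depth-weighted, the log2 ratios were 4.36 and 3.07 for Tpsab1 and 3.69 and 2.18 for Tpsg1. Tpsb2 had 3.08 CPM from 10 UMIs in oil members and 39.0 CPM in tamoxifen members, with 86.8% of the latter UMIs in the top 10 cells. In the tamoxifen library members held 44.7% of all Tpsg1 and 33.5% of all Tpsb2 UMIs, so most lay in remaining cells.

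The basophil protease Mcpt8 was higher in the same cells. It had 37.8 CPM in oil members and 42.7 in tamoxifen members against 0.842 and 1.71 in the remaining cells, log2 ratios of 5.49 (5.005 to 5.99) and 4.64 (4.15 to 5.12). Depth-weighted, the ratios were 3.91 and 1.78, and members held 71.1% of the oil and 35.2% of the tamoxifen library's Mcpt8 UMIs. Its UMIs came from 49 oil and 35 tamoxifen members, and 55.3% and 56.9% of them from the top 10 cells. Every one of these Mcpt8+ members also had a Cma1 UMI, 16 and 19 of them also had Mcpt4, and 39 and 30 had Cpa3. Cma1 itself was at 7202 CPM in the Mcpt8+ oil members against 2388 in the other oil members, and at 10872 against 3969 with tamoxifen. Cma1 UMIs were found in 466 of 499 oil and 276 of 285 tamoxifen members, so nearly any subset of members would show Cma1. Prss34, a further basophil protease, had 1.54 CPM and 10.3 CPM in members. Cd200r3, a receptor of basophils and mast cells, had 355 and 487 CPM against 116 and 125 (log2 ratio 1.61 and 1.97; depth-weighted 1.14 and 1.09), and Il4, the cytokine gene, 77.8 and 101 against 53.02 and 44.8 (0.55 and 1.17).

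Other genes of the chymase locus had low counts. Ctsg, cathepsin G, had 24.6 and 19.9 CPM in members against 3.97 and 6.15. Gzmb, granzyme B, had 3.69 CPM in oil members and 36.8 CPM in tamoxifen members, against 0.0168 and 0.512 in the remaining cells. Mcpt9 had 0 UMIs in oil members, where a count of 0 allows up to 0.923 CPM, and 3 UMIs in tamoxifen members. The granzyme genes between Ctsg and Gzmb (Gzme, Gzmd, Gzmg, Gzmn, Gzmf and Gzmc) had 0 UMIs in members and in the remaining cells of both libraries.

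**Figure D2:**
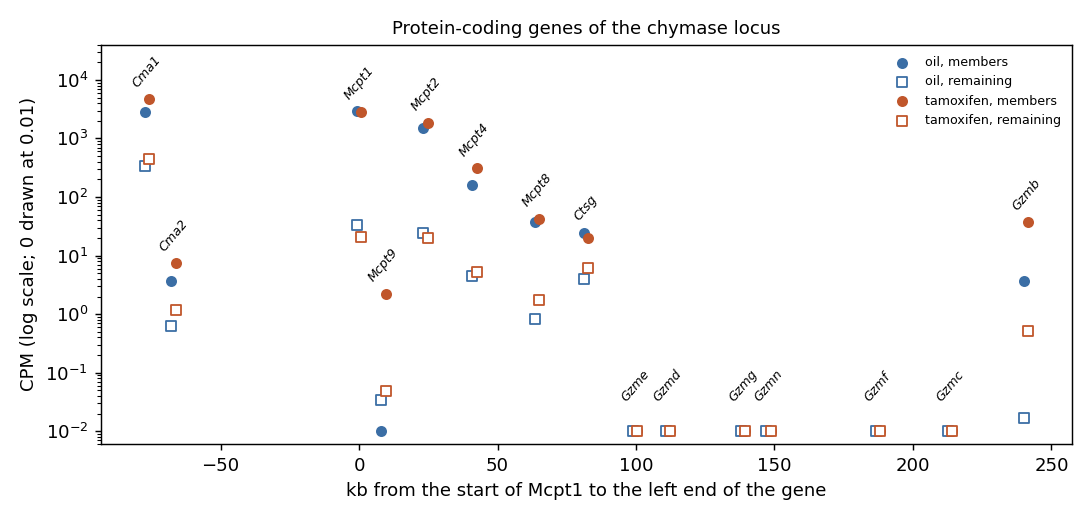
Level of each protein-coding gene of the chymase locus (vertical axis, CPM on a log scale, 0 drawn at 0.01) by its distance in kb from the start of Mcpt1 (horizontal axis), with filled circles for members and open squares for remaining cells, oil in blue and tamoxifen in orange. Mcpt1 and Mcpt2 are higher in members by the rule that chose them. Cma1, Cma2, Mcpt4, Mcpt8, Ctsg and Gzmb are also higher in members of both libraries, Cma2 and Gzmb on 12 UMIs each in oil members. The 6 granzyme genes before Gzmb sit at 0 throughout.

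Over all genes, 6059 reached a mean of 20 CPM over the 4 sums, Mcpt1 and Mcpt2 left out, and 102 of them (1.68%) were called higher in members and 2 (0.033%) lower. Since the members were chosen on Mcpt1 and Mcpt2 in these cells, these counts describe the members and support nothing further. With the depth-weighted remaining cells 35 genes were called higher and 2 lower. The median log2 ratio over all tested genes was 0.00 with oil and -0.05 with tamoxifen, and 2414 genes were above 0 and 2604 below 0 in both libraries. The 15 largest positive ratios, ranked by the smaller of both libraries, belonged to Tpsab1, Tpsg1, Mcpt4, Mcpt8, Ahnak, Serpinb1a, Csf2rb2, Cma1, Cpa3, Lat2, Fxyd5, Plek, S100a6, Alas2 and Lgals3.

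**Figure D3:**
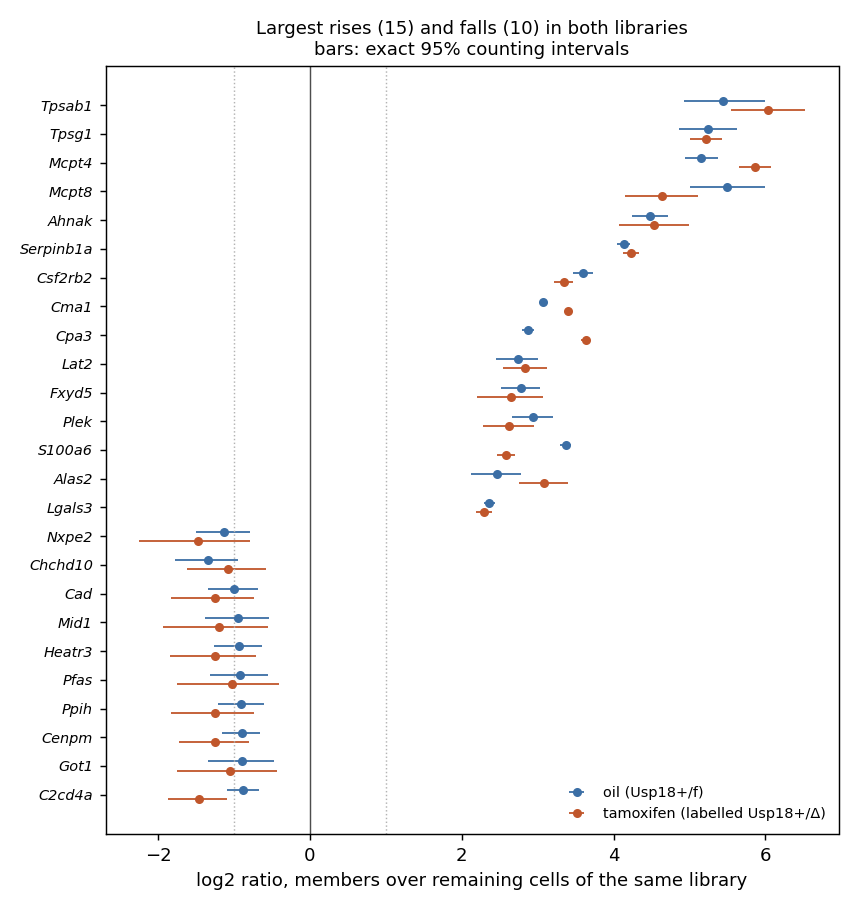
Log2 ratio of summed CPM, members over remaining cells (horizontal axis), for the genes with the 15 largest positive and 10 largest negative ratios in both libraries (vertical axis), with oil in blue, tamoxifen in orange, bars for exact 95% counting intervals and dotted lines at 1 and -1. All 15 positive ratios exceed 2 on the log2 scale in both libraries, while the negative ones lie near -1.

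Serpinb1a and Ahnak, the other markers given for these cells, were higher in members. Serpinb1a, an inhibitor of chymase-like and neutrophil serine proteases, had 694 CPM in oil members against 39.6, and 706 against 37.6 with tamoxifen (log2 ratio 4.13 and 4.23; depth-weighted 2.84 and 1.72). It was detected in 252 of 499 oil and 158 of 285 tamoxifen members. Ahnak, a very large scaffold protein under the plasma membrane, had 102 against 4.56 CPM with oil and 44.9 against 1.94 with tamoxifen (log2 ratio 4.48 and 4.54; depth-weighted 3.12 and 1.77). Ahnak UMIs were found in only 115 oil and 32 tamoxifen members. Of the other serpins and protease inhibitors, Serpinb6b, Serpinb9, Cst7 and Cstb had log2 ratios between 0.34 and 0.90 in both libraries and none was called, and Cst3 was near 0 (-0.06 and 0.06).

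Genes of the membrane cortex, annexins and S100 proteins were higher as a group. All 21 genes of the list that reached 20 CPM had ratios above 0 in both libraries, with medians of 0.77 and 0.85 (depth-weighted 0.77 and 0.56). Of these, 7 were called higher, against 1.68% of all genes tested. Ahnak, a given marker of these cells and among the 7, and Anxa4, not called, were under 20 CPM in the remaining cells. They reached that floor through the members, so the counts are descriptions. S100a6, a calcium-binding protein, had 677 against 65.5 CPM with oil (log2 ratio 3.37) and 481 against 80.4 with tamoxifen (2.58), or 2.87 and 1.58 depth-weighted. Vim, vimentin, had 682 against 122 and 676 against 172 CPM, and Lgals3, galectin-3, 584 against 113 and 612 against 125 CPM (depth-weighted log2 ratio 1.83 and 1.06). S100a11, S100a10 and Anxa5 had log2 ratios of 1.90 and 1.53, 1.42 and 1.27, and 1.24 and 1.06. Crip1 was higher by 1.09 with oil and by 0.70 with tamoxifen, and so was not called.

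Of the mast cell defining list, 13 of 15 genes reached 20 CPM, all had ratios above 0 in both libraries, and 6 were called higher, against 1.68% of all genes (medians 0.94 and 1.52). Tpsab1 and Mcpt4 reached that floor only through the members, where they are high, so the count is a description. Besides the proteases these were Fcer1a, the IgE-binding chain of the receptor, with 478 against 161 CPM with oil and 1050 against 249.4 with tamoxifen, and Slc18a2, which loads amines into granules, with 86.1 against 23.9 and 148 against 32.7. Ms4a2, the β chain of the receptor, was broadly present, with 760 against 503 CPM and 767 against 502 CPM (log2 ratio 0.60 and 0.61). Hdc, which makes histamine, had log2 ratios of 0.94 and 1.52, Il1rl1, the IL-33 receptor, 0.79 and 1.29, and Srgn, the granule proteoglycan serglycin, 0.55 and 0.74. Tph1, the first enzyme of serotonin synthesis, had 452 against 184 CPM and 760 against 216 CPM. UMIs of Ms4a2, Hdc, Il1rl1, Srgn and Cma1 were thus also counted in the remaining cells. Free RNA in the droplets can add such UMIs, and its share was not estimated. Depth-weighted, the list medians were 0.71 and 0.68, and Fcer1a was at 1.23 and 0.91, so that its call was lost with tamoxifen.

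Some signalling and receptor genes were called higher in members. Csf2rb2, a β chain used by the IL-3 receptor, had 244 against 20.1 CPM with oil and 482 against 47.5 with tamoxifen (log2 ratio 3.60 and 3.34; depth-weighted 2.45 and 1.53), and Csf2rb, the chain shared by IL-3, IL-5 and GM-CSF receptors, 703 against 184 and 938 against 248 (1.93 and 1.92). Both genes are close relatives, and reads shared between them were not tested. Lat2 and Lat, adaptors of the IgE receptor pathway, had log2 ratios of 2.74 and 2.84, and 1.32 and 1.77. Depth-weighted, Lat2 was at 1.86 and 0.91 and was no longer called with tamoxifen. Of 12 IgE receptor signalling genes tested, 11 were above 0 in both libraries and 3 were called higher, with medians of 0.57 and 0.68 (depth-weighted 0.45 and 0.32). Of 10 cytokine receptor genes 8 were above 0 in both libraries and 2 were called (medians 0.50 and 0.82), and of 9 genes of mediator synthesis and storage 8 were above 0 and 2 were called (0.43 and 0.74), where 1.68% of all genes were called. Kit, whose protein was part of the sort, had log2 ratios of 0.61 and 1.05. Epor, the erythropoietin receptor, had log2 ratios of -0.41 and -0.85 and was not called.

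Among 22 transcription factor genes tested, 13 were above 0 and 6 below 0 in both libraries, with medians of 0.22 and 0.22, and only Id2 was called higher (185 against 52.5 CPM and 349 against 61.3 CPM, log2 ratio 1.82 and 2.51), a count near the 1.68% of all genes. Gata2 and Mitf, which act in mast cell development, had log2 ratios of 0.73 and 1.06, and 0.84 and 0.64. Gata1 and Klf1, factors of the erythroid lineage, were at -0.18 and -0.40, and -0.12 and -0.27. Runx1, whose fusion drives this leukemia, had 878 against 552 CPM with oil and 841 against 532 with tamoxifen. Cebpa had 0 UMIs in members of both libraries.

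Immediate early and NF-κB target genes were partly higher. Klf2 had 37.5 and 23.6 CPM in members against 1.16 and 0.272 in the remaining cells. Jund, Klf6, Zfp36, Btg2 and Ier3 were called higher, with log2 ratios between 1.17 and 1.79, while the heat shock genes Hspa8 and Hsp90aa1 were not called (-0.29 and -0.53, -0.26 and -0.58). These were 5 called genes of 15 tested, against 1.68% of all genes. Of 4 tested NF-κB targets all were above 0 in both libraries (medians 0.61 and 0.80), and Ier3 was the called one. The 11 tested p53 targets had medians of -0.16 and -0.23, with 5 above 0 and 6 below 0 in both libraries, and 4 tested integrin genes had medians of 0.34 and 0.38.

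Haemoglobin RNA was also higher in members. Hbb-bs had 6289 against 1833 CPM with oil and 11249 against 1968 with tamoxifen (log2 ratio 1.78 and 2.51; depth-weighted 1.43 and 1.68), and Hbb-bt, Hba-a1 and Hba-a2 were called higher too. With Alas2 these were 5 called genes of 14 tested, against 1.68% of all genes. Alas2 was under 20 CPM in the remaining cells and reached that floor through the members, so the count is a description. Alas2, the haem synthesis enzyme of red cell precursors, had 30.8 against 5.59 and 70.7 against 8.34 CPM (depth-weighted log2 ratio 1.92 and 1.77). The list medians were -0.05 and -0.34 (depth-weighted -0.05 and -0.16). The other 9 genes of the erythroid list were not called: Car1, Car2, Tfrc, Epor, Rhd, Gata1 and Klf1 were below 0 in both libraries, and Ermap lay at 0.06 and -0.20. Hbb-bs was detected in 82.4% of oil and 81.4% of tamoxifen members and in 66.9% and 63.0% of the remaining cells. Members had fewer UMIs per cell, and the part of depth in this result beyond that weighting was not tested.

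Markers of other blood cells differed in level. Summed CPM over the neutrophil list was 25.5 and 21.4 in members, of which Ctsg, part of the chymase locus, made up 24.6 and 19.9. The list summed to 5.49 and 31.3 CPM in the remaining cells. S100a9, Camp, Ngp, Ltf and Mpo were at 0 in members of both libraries. The B cell list summed to 0.308 CPM and 0 CPM, with Ms4a1 and Pax5 at 0. In the T and NK list all markers but Nkg7 (13.8 and 30.2 CPM) were at 0. The eosinophil list summed to 2.77 and 6.63 CPM with Prg2 and Epx at 0, and the monocyte and macrophage list to 45.2 and 79.6 CPM, mostly Ccr2 (33.8 and 59.7 CPM), against 34.2 and 45.5 CPM in the remaining cells. The platelet and megakaryocyte list summed to 125 and 120 CPM in members against 115 and 119 CPM in the remaining cells, mostly Gp5 (101 and 87.7 CPM in members, 97.3 and 101 CPM in the remaining cells), with Pf4 and Ppbp at 0 in members. The stem and progenitor list summed to 38.4 and 79.6 CPM in members against 35.3 and 47.2 CPM in the remaining cells.

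Most cell cycle genes had negative ratios, none of them called. Of 39 S phase genes 37 and of 49 G2M phase genes 48 had ratios below 0 in both libraries, with medians of -0.53 and -1.05 for S phase and -0.38 and -1.18 for G2M phase. Mki67, a protein of dividing nuclei, had 427 against 554 CPM with oil and 186 against 508 with tamoxifen (log2 ratio -0.37 and -1.45; depth-weighted -0.02 and -0.49). After thinning to 3000 UMIs, 52.4% of 443 oil members (47.6 to 57.1) were called G1 against 18.2% of 5985 remaining cells, and 72.4% of 210 tamoxifen members (65.8 to 78.3) against 25.8% of 6843. Without thinning the G1 shares were 55.7% against 21.04% and 81.1% against 30.2%. Thinning left out 56 and 75 members. The sums moved with depth: against depth-weighted remaining cells the G2M median was 0.01 with oil and -0.30 with tamoxifen. The oil difference in G2M genes was thus near 0 once depth was weighted. The S phase median stayed below 0, at -0.36 with oil and -0.46 with tamoxifen. A G1 call from such scores does not show that a cell has left the cycle.

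Among cell cycle inhibitors, Btg2 had 73.8 against 28.4 CPM with oil and 92.1 against 41.0 with tamoxifen and was the 1 gene of 11 called higher, where 1.68% of all genes were called. Cdkn1b, which encodes p27, had log2 ratios of 0.72 and 1.07, and Cdkn1a, which encodes p21, 0.77 and 0.25. The 10 largest negative ratios belonged to Nxpe2, Chchd10, Cad, Mid1, Heatr3, Pfas, Ppih, Cenpm, Got1 and C2cd4a. Of these Nxpe2 (20.9 against 45.9 CPM with oil, 12.5 against 34.7 with tamoxifen) and Chchd10, a mitochondrial protein (15.7 against 39.8, 23.6 against 49.6), were the called pair. Depth-weighted, Nxpe2 was at -1.07 and -1.16 and Chchd10 at -1.10 and -0.60, so the call of Chchd10 was lost and the 2 genes called lower under that weighting are not this pair. Cad and Pfas, enzymes of pyrimidine and purine synthesis, had log2 ratios of -0.999 and -1.25, and -0.92 and -1.03. Depth-weighted these were -0.78 and -0.68, and -0.82 and -0.52.

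Other genes differed along the amount of Mcpt RNA, though not all of them at every step. Across the oil bins from 0 to 100 or above, Serpinb1a had 29.2, 49.4, 225, 312, 721, 1070 and 1848 CPM, and Cma1 240, 498, 1361, 1783, 2737, 3861 and 6360 CPM. In the tamoxifen library Cma1 had 360, 671, 2306, 2823, 5447, 6161 and 8380 CPM. Serpinb1a there had 28.0, 51.8, 349, 396, 801, 792 and 1530 CPM, and so did not rise at every step. The summed S phase list went from 3873 to 1531 CPM with oil and from 3827 to 1320 with tamoxifen, and Mki67 was at 113 and 17.5 CPM in the highest bin. Cells between 5 and 10 per 10000, just outside the members, had 225 and 349 CPM of Serpinb1a, between the levels of cells without Mcpt RNA and those of members. Median depth moved with the bins as well, from 8821 to 4529 UMIs with oil and from 8339 to 3381 with tamoxifen.

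**Figure D4:**
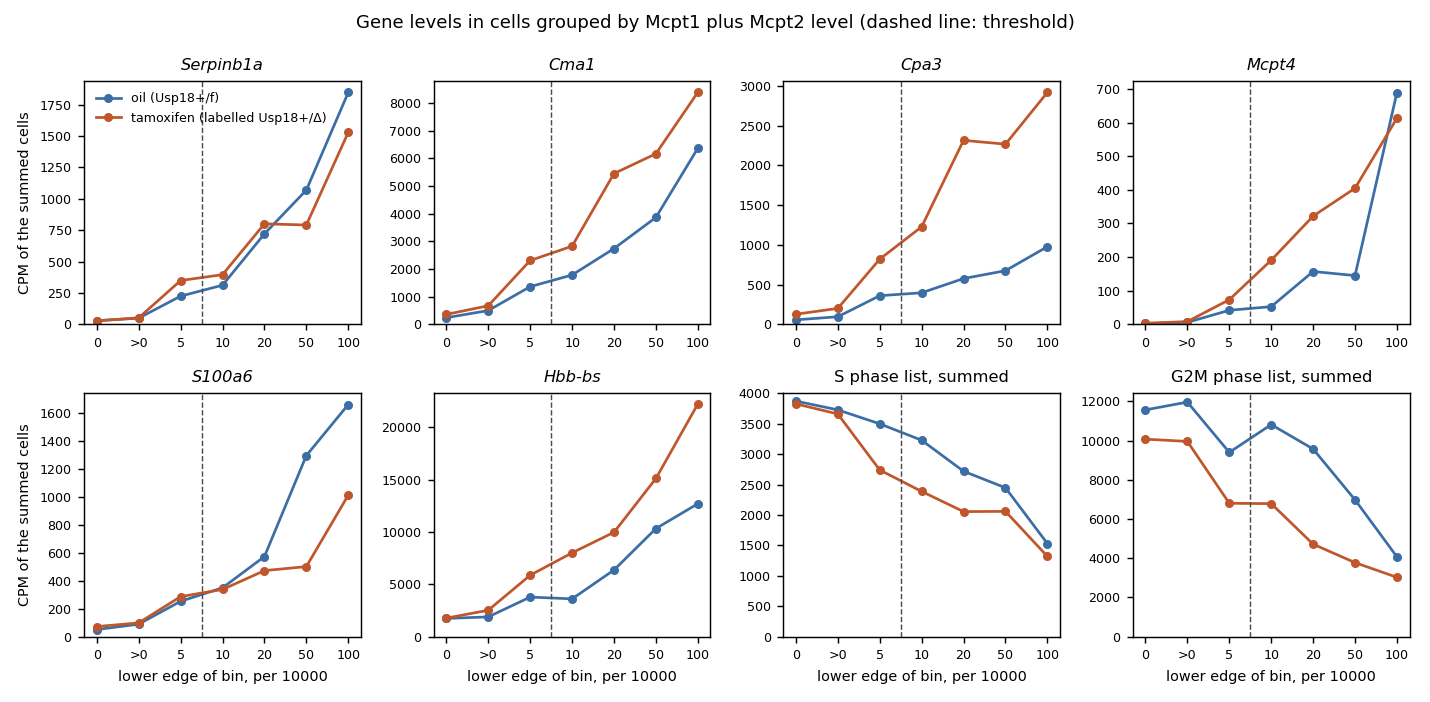
CPM of 6 genes and of the summed S phase and G2M phase lists (vertical axes, from 0) in cells grouped by Mcpt1 plus Mcpt2 level (horizontal axes, lower edge of each bin per 10000 UMIs), with oil in blue, tamoxifen in orange and the threshold dashed. Cma1 goes from 240 to 6360 CPM with oil and from 360 to 8380 with tamoxifen, and the cell cycle sums are lower in the highest bin than at 0. The oil G2M sum does not go down at every step, with 9398 CPM in the bin from 5 and 10814 CPM in the bin from 10.

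Members lay near each other when the Mcpt genes were left out. Among the 20 nearest neighbours of an oil member, by 30 principal components of 2000 variable genes without any Mcpt gene, 28.3% were members, against 7.25% of all oil cells and 3.29% among the neighbours of remaining cells. In the tamoxifen library these values were 23.4%, 3.85% and 1.81%. More than 50% of the neighbours were members for 120 of 499 and 36 of 285 members, while 88 and 54 members had no member among their neighbours. Since genes that go with Mcpt1 and Mcpt2 remained in this space, and depth differed, the values describe the members and test nothing.

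A closer comparison set members beside remaining cells with high Cpa3, those at or above the members' median Cpa3 level of their library. There were 1201 such oil cells and 472 such tamoxifen cells, with median depths of 7372 and 4263 UMIs. The Cpa3 thresholds were unlike, 0.998 and 9.59 per 10000, since 265 of 499 oil but 215 of 285 tamoxifen members had any Cpa3 UMI. Of 6085 genes tested, 14 (0.23%) were called higher in members and 0 (0%) lower. Mcpt4 (log2 ratio 3.63 with oil, 2.20 with tamoxifen), Tpsab1 (4.09 and 1.81), Ahnak (4.06 and 1.55) and S100a6 (3.04 and 1.21) stayed higher, as did Hba-a1 (2.26 and 2.18), Hbb-bs (1.58 and 1.72) and Ifi27l2a (1.38 and 1.15). Cma1 differed by 1.78 with oil and 0.44 with tamoxifen, Serpinb1a by 2.87 and 0.72, and Vim by 1.54 and -0.07. Mki67 differed by 0.07 and 0.27. The G2M list median was 0.04 and 0.32, with 23 of 45 genes above 0 and 4 below 0 in both libraries. The S phase median was -0.26 and 0.02, with 1 of 36 genes above 0 and 16 below 0 in both. In the tamoxifen library, where this Cpa3 cut-off was high and median depths were similar, the log2 ratios were near 0 for Fcer1a (-0.16), Ms4a2 (-0.04) and Tpsb2 (-0.04).

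Usp18, the targeted gene (chr6:121245906-121270917, plus strand, mm10), was examined in members of both libraries. It had 20 UMIs or 6.15 CPM in oil members and 63 UMIs or 46.4 CPM in tamoxifen members, log2 ratio 2.92 (2.17 to 3.72), and 5.62 and 23.3 CPM in the remaining cells. Usp18 RNA was therefore higher, not lower, in the library labelled Usp18+/Δ. Whether these 3′ tags fall in the deleted exons was not given in the sources used here, so the count does not check the deletion, and the labels are kept as names.

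Interferon-stimulated genes were higher in tamoxifen members than in oil members. Of 6051 genes that averaged 20 CPM or more over both member sums, 79 (1.31%) were at least 2-fold higher and 75 (1.24%) at least 2-fold lower with tamoxifen. Among cells of at most 5% mitochondrial UMIs these counts were 387 and 719. Of 27 interferon-stimulated genes tested, all 27 had ratios above 0 and 19 were at least 2-fold higher, with a median of 1.33, and the same genes had a median of 1.14 in the remaining cells. Of the 19, Ifit1, Irf7, Usp18, Rtp4, Oas2, Ifih1, Ddx58, Isg20 and Xaf1 were under 20 CPM in oil members and reached the floor through the tamoxifen members, so the counts and the median are descriptions. Isg15, a ubiquitin-like protein, had 30.8 CPM in oil and 226 CPM in tamoxifen members (log2 ratio 2.88, 2.55 to 3.22) against 20.3 and 110 CPM in the remaining cells (2.44). Ifi27l2a had 272 CPM in oil and 961 CPM in tamoxifen members (1.82, 1.70 to 1.95), and Irf7, a transcription factor of the response, 7.07 and 81.8 CPM. Between members and remaining cells, 23 of 25 tested genes of the list had ratios above 0 in both libraries, with medians of 0.43 and 0.66 (depth-weighted 0.33 and 0.29). The 3 called were Ifi27l2a, Rtp4 and Oas3, against 1.68% of all genes. Rtp4 had 3.27 CPM in remaining oil and 26.3 CPM in remaining tamoxifen cells. It reached the floor through tamoxifen members, at 80.3 CPM, so this count is a description too.

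**Figure D5:**
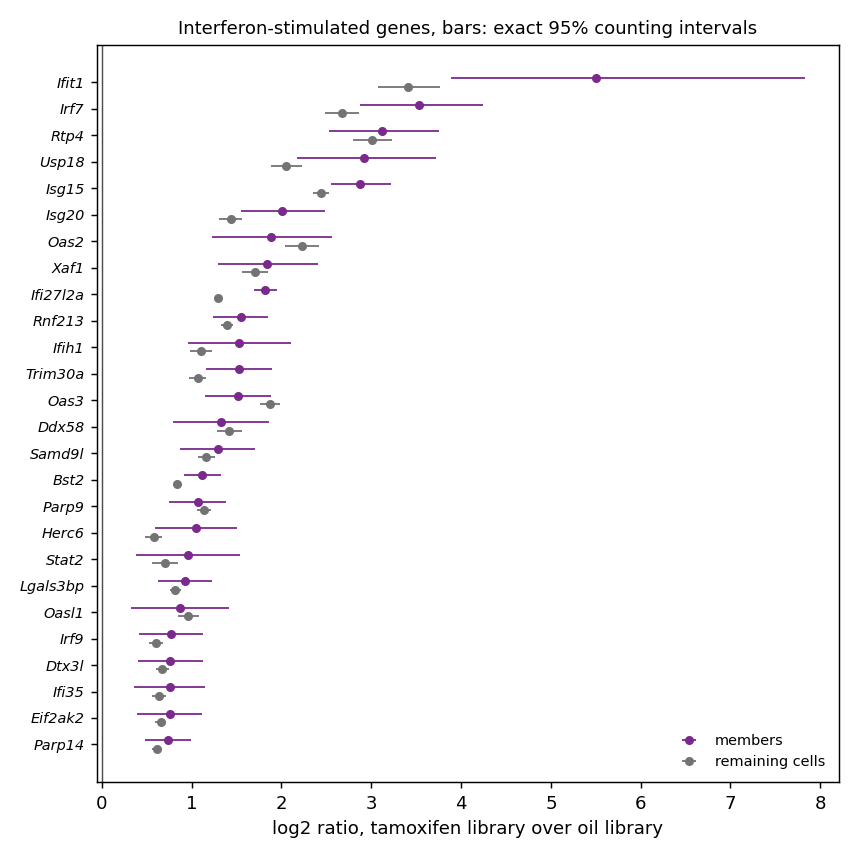
Log2 ratio of CPM, tamoxifen over oil (horizontal axis), for 26 of the 27 interferon-stimulated genes that averaged 20 CPM or more in members (vertical axis; 1 gene is not shown), in members (purple) and remaining cells (grey), with exact 95% counting intervals. Every gene shown lies above 0 in both sets of cells, and the member and remaining values of most genes lie close together.

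The ratio of ratios, members minus remaining cells, was 0.44 for Isg15 (counting interval 0.10 to 0.78) and 0.53 for Ifi27l2a (0.40 to 0.66), and 22 of 27 genes had the larger ratio in members. With 1 library per group these differences have no replicate check. Members over remaining cells, the list medians were 0.43 with oil and 0.66 with tamoxifen, but 0.33 and 0.29 depth-weighted, so the larger median with tamoxifen was not present once depth was weighted.

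Some mast cell genes were higher in tamoxifen members than in oil members as well. Of 15 mast cell defining genes tested, 14 were above 0 and 5 at least 2-fold higher, against 1.31% of all genes. Their median was 0.74 against 0.24 in the remaining cells. Tpsb2 (3.08 CPM in oil and 39.0 in tamoxifen members) and Mrgprb2 (3.38 and 40.5) were among the 5. Both reached the floor only through the tamoxifen members, where they are high, so the count is a description. Cpa3 differed by 1.78 (1.70 to 1.87) in members and 1.03 in the remaining cells, Tpsg1 by 2.11 and 2.13, Fcer1a by 1.14 and 0.63, and Cma1 by 0.74 and 0.42. The depth-weighted ratios of members over remaining cells were lower with tamoxifen than with oil for Cpa3 (1.47 and 1.72), Fcer1a (0.91 and 1.23) and Cma1 (1.49 and 2.33), so the larger tamoxifen difference in members was not present once depth was weighted. Mcpt1 had 2922 CPM in oil and 2865 CPM in tamoxifen members and Mcpt2 1486 and 1826, as a description, since these genes chose the members. Cyp11a1, which starts steroid synthesis, had 234 CPM in oil and 782 CPM in tamoxifen members (log2 ratio 1.74) and differed by 1.34 in the remaining cells.

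Among genes that averaged 50 CPM or more over both member sums, the 5 largest positive ratios of tamoxifen over oil members belonged to Isg15, Tpsg1, Ifi27l2a, Cpa3 and Cyp11a1, and the 5 largest negative ones to Hspa1b, Hist1h2ap, Hist1h2ae, Ube2c and Kif20b. Hspa1b, an inducible heat shock protein, had 214 CPM in oil and 32.4 in tamoxifen members and was lower in the remaining cells too (log2 ratio -2.73 and -2.10). The histone genes Hist1h2ap and Hist1h2ae had log2 ratios of -1.68 and -1.61 in members and -0.74 and -0.38 in the remaining cells. Ube2c and Kif20b, genes of mitosis, had -1.45 and -1.43 in members and -0.38 and -0.13 in the remaining cells. The G2M list had a median of -0.88 in members and -0.13 in the remaining cells. Of its 46 genes, 21 were at least 2-fold lower in tamoxifen members, against 1.24% of all genes. Median depth differed in parallel, 5591 UMIs in oil and 4198 UMIs in tamoxifen members, and the part of depth in these ratios was not tested.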

How the data were processed

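Single-cell RNA-seq of GFP+ Lin- c-Kit+ splenocytes was analysed in 2 libraries (1 for oil, 1 for tamoxifen), with 3 mice pooled and 8000 cells targeted in each. The deposited values are raw UMI counts per gene and cell barcode, which the authors made with Cell Ranger 3.0.2 on mm10 from 10x Genomics 3′ V3 libraries. Reads that map to more than 1 gene are not counted by this tool, so relatives can lose reads.

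The oil library held 63690481 UMIs over 7281 barcodes and the tamoxifen library 65146263 UMIs over 7833. The cell filter required 500 or more detected genes and no more than 10% of UMIs from mitochondrial genes. Members held 3251048 and 1357477 UMIs, the remaining cells 59395094 and 62486803. No doublets were removed: the automatic threshold of Scrublet (in scanpy 1.11.5, expected rate 6%) marked 0.029% and 0.0405% of cells, and cells above the 95th percentile of its scores were left out in an alternative. UMIs were summed per library and set and scaled to CPM. Intervals are exact Poisson, Clopper-Pearson, exact conditional (ratios) or score (shares). A count of 0 allows up to 3 UMIs. Functions were tested on simulated data. Phases were called in scanpy on cells thinned to 3000 UMIs.

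Named genes came from 27 gene lists, from the 15 largest positive and 10 largest negative ratios with the same sign in both libraries at a mean of at least 20 CPM, and from the 5 largest of each sign between the libraries' members at a mean of at least 50 CPM. Klf2, Prss34 and the locus genes below these floors are given as values only. A few genes of the lists are counted but not reported by name here. The members and lists were chosen with earlier results of these data known. Of 31053 genes in the files, 31011 matched GENCODE vM21 by identifier. Alternatives varied the cell filter, threshold, doublets, averaging, scaling, low-count filter, thinning and neighbour settings; 4 alternatives on depth, least Mcpt UMIs and barcodes present in both libraries were added after seeing the data.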

Additional observations from a re-analysis of the deposited data

Results flagged for a closer look

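S100a6, which encodes a calcium-binding protein, was lower in tamoxifen than in oil members, at a log2 ratio of -0.49 (95% counting interval -0.62 to -0.37), but higher in the tamoxifen than in the oil remaining cells, at 0.29. It drew attention because these ratios have opposite signs. Each rests on 1 library per group, so the difference between members and remaining cells was not tested over replicates. Among cells of at most 5% mitochondrial UMIs the ratio in members was 0.41.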

How the results depend on the processing

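Of 281 values recomputed for the comparisons, 203 stayed within the limits set for a like value, 76 moved and 2 reversed. Of 1155 values for single genes 917 stayed, 237 moved and 1 reversed (S100a6, tamoxifen over oil in members, 0.41 at most 5% mitochondrial UMIs). In what follows, higher and lower are counts of genes called in members against remaining cells, and list medians are given as oil and tamoxifen. The cause was not tested unless the alternative itself changed the number of genes or cells.

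At most 5% mitochondrial UMIs, the log2 share ratio reversed to 0.85, 175 genes were higher and 73 lower, and 387 were higher and 719 lower in tamoxifen than in oil members. The medians were 1.72 and 1.95 for mast cell genes, 5.84 and 3.83 for proteases, -2.25 (tamoxifen) for S phase, -0.71 and -3.46 for G2M, and -2.67 for G2M between members. With a threshold of 5, 0 genes were lower, 52 and 24 were higher and lower between members, and medians were 0.81 and 1.22 (mast cell) and 2.93 and 3.33 (proteases). With a threshold of 20, 166 were higher and 33 lower, 142 were lower between members, and medians were 1.06 and 1.79 (mast cell), 5.45 (proteases, oil) and -0.61 and -1.80 (G2M). Without high doublet scores, 6 genes were lower and 73.0% of remaining tamoxifen cells were called S or G2M. With mean CPM per cell, 26 genes were lower, 120 were lower between members, and medians were 1.83 and 1.998 (mast cell), 4.11 (proteases, tamoxifen), -0.79 and -1.45 (S phase) and -0.57 and -1.64 (G2M). When totals left out haemoglobin, ribosomal protein and mitochondrial genes, 4 genes were lower and the protease medians were 4.07 and 4.11. A floor of 5 CPM gave 196 higher, 12 lower, 221 and 255 between members, and 1.57 and 2.07 (mast cell). A floor of 100 CPM gave 30 higher, 0 lower, 14 and 13 between members, 0.86 and 1.41 (mast cell) and 2.97 and 3.51 (proteases), with the median of all genes at -0.11 with tamoxifen. Unthinned, 79.0% and 69.8% of remaining cells and 18.9% of tamoxifen members were called S or G2M, and thinned to 1500 UMIs 79.3% and 70.8% of remaining cells. With Cpa3 at the upper quartile, 17 genes were lower in members.

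Of the alternatives added after seeing the data, cells of at least 3000 UMIs gave a log2 share ratio of -1.21 and medians of 0.85 and 1.18 (mast cell) and 2.94 and 3.51 (proteases). Weighting by depth gave 35 higher genes, 0.71 and 0.68 (mast cell), 3.69 and 1.78 (proteases), 0.29 (interferon-stimulated genes, tamoxifen), -0.46 (S phase, tamoxifen) and 0.014, reversed, and -0.30 (G2M). Members with at least 5 Mcpt UMIs gave 1 lower gene and 1.43 (mast cell, tamoxifen). No paired analysis was possible because there was a single pooled library for oil and for tamoxifen. Members of the tamoxifen library held 1357477 UMIs, where 0 UMIs allow up to 2.21 CPM.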

Other observations

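Barcodes outside the cell filter also met the Mcpt threshold. They were 33 of 395 left-out oil barcodes, 8.35% (95% Clopper-Pearson interval 5.82 to 11.5), and 14 of 427 left-out tamoxifen barcodes, 3.28% (1.80 to 5.44). All left-out barcodes together had a median of 867 UMIs in the oil and 2226 UMIs in the tamoxifen library, and none entered the main comparisons.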
